A study of Homo sapiens with 52 samples.

Results

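The 9 chemokines described here were CCL2, CCL5, CCL7, CCL20, CXCL10, CXCL11, CX3CL1, CXCL16 and CXCL12, taken by symbol from a table of 43290 gene symbols. They are the ligands through which an endothelial cell calls monocytes and T cells to the vessel wall, and all 9 had values in every library. RNA was measured as TPM (a share of the library's transcripts corrected for their length, on a scale that sums to 1000000) in 2 human endothelial lines. TeloHAEC is an aortic endothelial line, immortalised with telomerase, whose medium holds VEGF, and Eahy926 is a hybrid endothelial line kept in DMEM with serum. The unmodified (parental) lines received no agent, or for 24 h interleukin-1β (IL-1β) at 10 ng/ml or tumour necrosis factor-α (TNF-α) at 10 ng/ml, with 3 libraries a group. A further group of 3 in each line concerned VEGF for 24 h: by the treatment labels it was left out of the TeloHAEC medium and given to Eahy926. The titles of these TeloHAEC libraries read VEGF, which goes against their treatment label, and the treatment label is followed here. Apart from these, 24 libraries came from a sorted TeloHAEC population with doxycycline-inducible KRAB-dCas9, a repressor that a guide RNA brings to a promoter (CRISPR interference, CRISPRi). All of these, the 4 with non-targeting guides included, carried a guide vector and received 2 ug/ml doxycycline for 5 days. The targets were CCM2, PDCD10, ITGB1BP1, MESDC1, MAP3K3, MAP2K5, MEF2A, KLF2, NFAT5 and CDH5, with 2 guides each and 1 library per guide, and no cytokine was named for these cells. No label says whether a group's libraries are separate cultures, and p-values therefore measure only the spread between these libraries, which may be technical. In the CRISPRi tests the 2 guides of a target served as its replicates. The spread there also holds differences between guides, such as how far each reduced its target.

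Chemokines are small secreted proteins that bind heparan sulphate on the endothelial surface and activate receptors on passing leukocytes. CCL2 and CCL7 act on CCR2 of monocytes, CCL5 attracts monocytes and T cells, and CCL20 is the ligand of CCR6. CXCL10 and CXCL11 are ligands of CXCR3 on activated T cells and are known as interferon-induced genes. CX3CL1 and CXCL16 are made as membrane-anchored proteins with a chemokine domain on a stalk and bind CX3CR1 and CXCR6, and CXCL12 is the ligand of CXCR4. IL-1β and TNF-α both activate the transcription factor NF-κB in endothelial cells.

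The promoters of CCL7, CCL20, CXCL10 and CXCL11 are shown because these 4 genes differed between the 2 cytokines in TeloHAEC. Each is the 250 bases before the start of the gene, 5′ to 3′ on the strand of the gene, from RefSeq on GRCh38.p14. RefSeq promoters were matched for 5 of the 9 chemokines: these 4 and CXCL12. Capitals mark matches to the NF-κB consensus, to the interferon-stimulated response element (ISRE, searched as a pair of GAAA blocks 2 bases apart), to the AP-1 site TGANTCA and to the TATA box TATAAA, searched on both strands. No marked matches overlap each other.
CCL7 (chr17:34269971-34270220, plus strand): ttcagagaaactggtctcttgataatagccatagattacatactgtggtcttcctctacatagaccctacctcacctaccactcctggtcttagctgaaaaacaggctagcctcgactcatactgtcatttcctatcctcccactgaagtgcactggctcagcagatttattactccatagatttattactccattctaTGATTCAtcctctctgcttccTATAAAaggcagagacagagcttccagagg
CCL20 (chr2:227813592-227813841, plus strand): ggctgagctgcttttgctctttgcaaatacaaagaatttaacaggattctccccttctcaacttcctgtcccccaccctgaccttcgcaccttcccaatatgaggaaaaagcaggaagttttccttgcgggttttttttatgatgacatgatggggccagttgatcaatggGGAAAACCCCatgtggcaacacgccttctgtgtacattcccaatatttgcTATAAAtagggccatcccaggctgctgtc
CXCL10 (chr4:76023498-76023747, minus strand): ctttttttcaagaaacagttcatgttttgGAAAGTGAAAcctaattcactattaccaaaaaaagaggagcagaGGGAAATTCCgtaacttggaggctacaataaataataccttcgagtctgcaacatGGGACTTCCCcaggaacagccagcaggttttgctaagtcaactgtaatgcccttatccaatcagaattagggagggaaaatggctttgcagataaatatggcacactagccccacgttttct
CXCL11 (chr4:76036071-76036320, minus strand): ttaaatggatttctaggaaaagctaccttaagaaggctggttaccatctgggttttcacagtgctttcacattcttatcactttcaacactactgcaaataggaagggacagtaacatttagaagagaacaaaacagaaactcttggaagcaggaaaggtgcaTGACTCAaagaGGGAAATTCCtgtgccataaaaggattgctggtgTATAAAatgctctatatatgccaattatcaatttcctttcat
The CXCL10 window held 2 NF-κB matches, 177 and 122 bases upstream of the start, and 1 ISRE match, 221 bases upstream. The CXCL11 window held 1 NF-κB match at 76 bases, 1 AP-1 match at 87 bases, a TATA box at 42 bases and no ISRE match. The CCL20 window held 1 NF-κB match on the opposite strand, 79 bases upstream, and a TATA box at 29 bases. The CCL7 window held an AP-1 match at 51 bases and a TATA box at 30 bases. The CXCL12 window held none of the 4 motifs. Of 35116 promoters of this length, 5.21% held the NF-κB consensus, 3.02% the ISRE, 6.57% the AP-1 site and 10.7% the TATA box. These matches are letters in a window and no binding was measured. In the RefSeq gene order CCL2 and CCL7 are neighbouring coding genes on chromosome 17, and CXCL10 and CXCL11 are neighbours on chromosome 4.

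Each parental library summed to 1000000 TPM, and the CRISPRi libraries to between 96.8% and 97.2% of that. At least 1 TPM was reached by 12098 to 12987 symbols per parental library and by 12299 to 12682 per CRISPRi library. TPM keep no read counts, so depth is unknown. The summed TPM of 10 endothelial markers was 3032 to 3252 in the TeloHAEC groups and 926 to 1054 in the Eahy926 groups. Of 12 leukocyte markers, PTPRC stayed at or below 0.0741 TPM in parental cells and CD3E, MS4A1 and FCGR3A were listed at 0. CD68 at 70.9 to 219 TPM carried most of the sum. LYZ reached 6.63 TPM and CD79A 1.32 TPM. The LYZ mean was 4.08 TPM in untreated Eahy926 and 0.0364 TPM in untreated TeloHAEC. Of 10 fibroblast and mural markers, ACTA2 (54.4 to 82.9 TPM), RGS5 (5.11 to 31.3) and MYH11 (1.24 to 6.15) were above 1 TPM in every parental library of the fit, and the other 7 stayed at or below 0.623. RGS5 fell with IL-1β (-0.98 on the log2 scale) and TNF-α (-0.58) in TeloHAEC and with TNF-α in Eahy926 (-1.01), and its part in the chemokine values was not tested. In bulk RNA, fewer cells that express a gene and less RNA per cell cannot be told apart.

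CCL2 was the most abundant of the 9 in parental cells and the only one above 1 TPM in all 24 libraries. In untreated TeloHAEC it was at 119, 99.3 and 107 TPM. IL-1β brought it to 2473, 2348 and 2486 TPM, and TNF-α to 2314, 2314 and 2328 TPM. Every cytokine-treated library was far above every untreated one. The mean rose 22.5-fold with IL-1β, from 108 ± 10.1 to 2436 ± 76.1 TPM (SD, n = 3 libraries a group), and 21.4-fold with TNF-α, to 2318 ± 8.19 TPM. Log2 differences were computed as log2(TPM + 1), which understates changes of low genes, and were tested with limma over all genes of the parental libraries. For CCL2 they were 4.48 ± 0.0695 (SE, limma adjusted p = 8.12e-22) with IL-1β and 4.41 ± 0.0695 (limma adjusted p = 2.27e-21) with TNF-α.

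**Figure D1:**
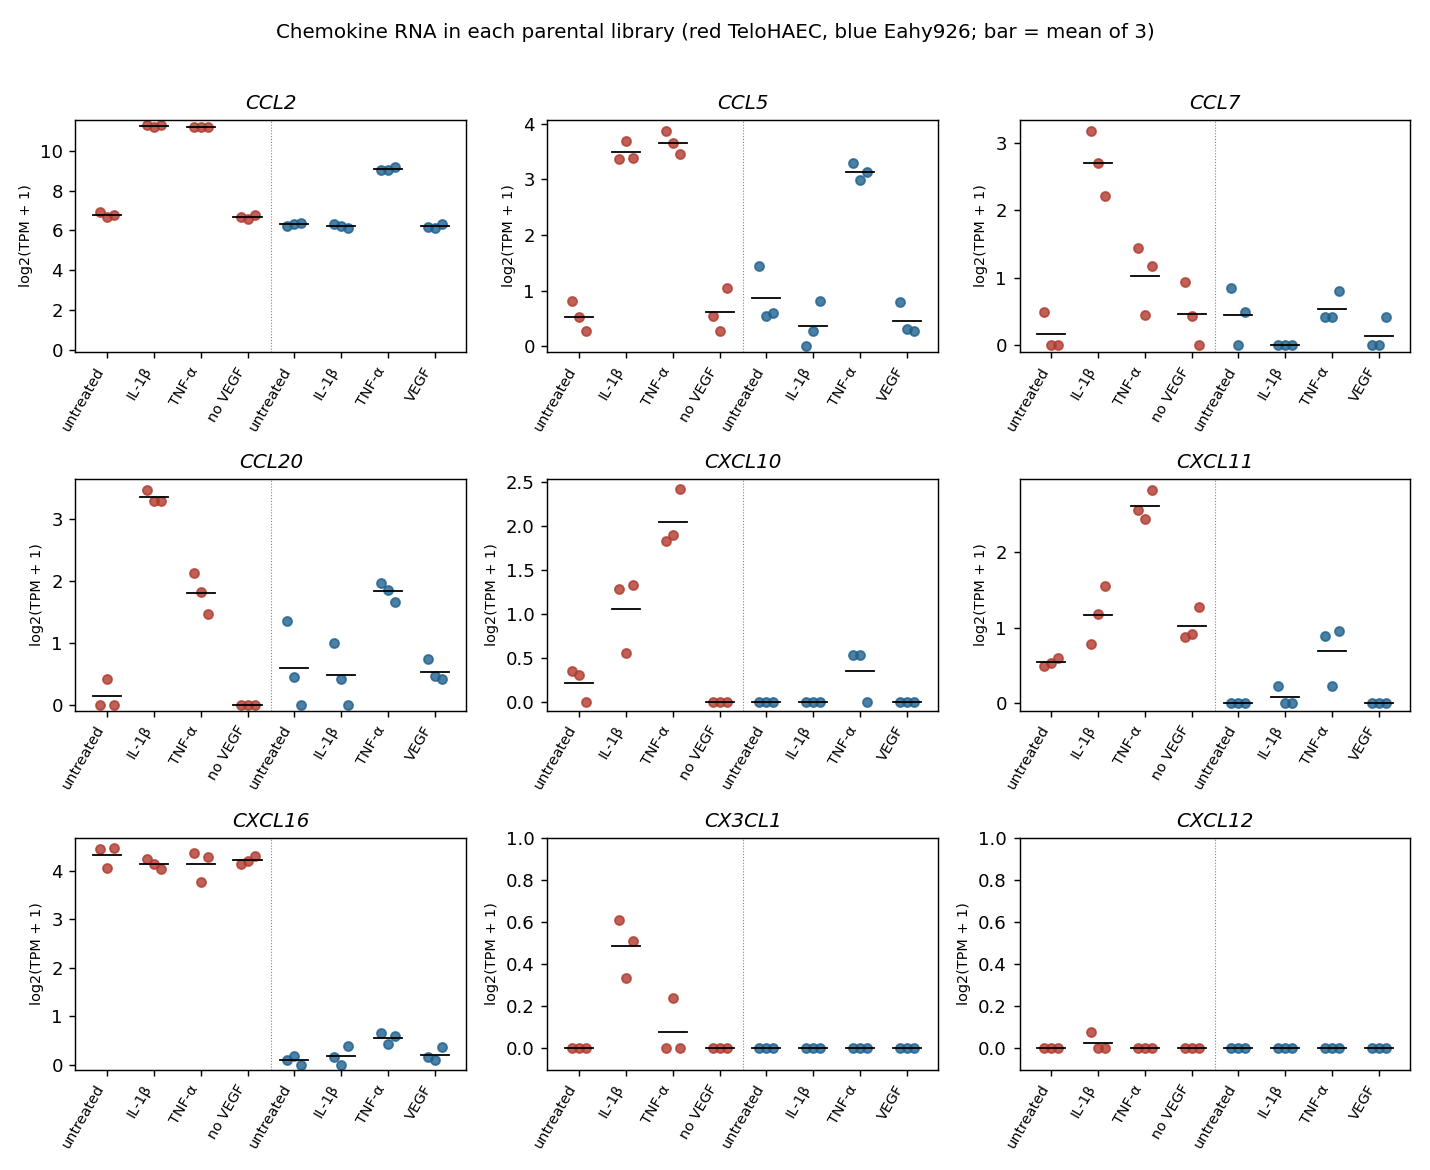
Level of each of the 9 chemokines in each parental library, as log2(TPM + 1) on axes of their own, with 3 points and a bar for their mean in each group, TeloHAEC in red and Eahy926 in blue. In TeloHAEC, CCL2, CCL5, CCL20, CXCL10 and CXCL11 sit above the untreated libraries with both cytokines, while CXCL16 overlaps them.

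The chemokines that passed the filter of the parental fit (at least 1 TPM in at least 3 libraries) were 7 of the 9, all but CX3CL1 and CXCL12. CCL7 and CXCL10 reached 1 TPM only in cytokine-treated TeloHAEC, and CCL5, CCL20 and CXCL11 reached it in 3 libraries only when cytokine-treated ones were counted. These 5 entered the fit through the groups in which they were high, so the counts and medians of the tested chemokines are a description. With IL-1β, 6 of the 7 tested passed as higher in TeloHAEC and none as lower, beside 31.1% of all 13542 tested genes called in either direction, 9.92% called higher and 21.2% called lower. With TNF-α 6 of 7 passed as higher as well, beside 18.2% called in either direction, 8.27% higher and 9.95% lower. The median log2 difference of the tested chemokines was 2.53 with IL-1β and 1.83 with TNF-α, and that of all genes was -0.07 and -0.02. TPM are shares of a library: of all genes called with IL-1β 31.8% were higher, and 47.4% when libraries were scaled by the median of ratios. Markers shifted too: the 8 epithelial markers summed to 2047 to 2134 TPM in untreated TeloHAEC, 1061 to 1100 with IL-1β and 1483 to 1572 with TNF-α, with 4 of 8 reaching 1 TPM in each. The part of this shift in the chemokine values was not tested.

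CCL5, a ligand for both monocytes and T cells, was at 0.758, 0.435 and 0.210 TPM in untreated TeloHAEC. It was at 9.35, 11.9 and 9.46 TPM with IL-1β and at 13.6, 11.6 and 9.93 TPM with TNF-α, with no overlap with untreated cells. Its log2 rise was 2.95 ± 0.242 (SE, limma adjusted p = 2.55e-09) and 3.12 ± 0.242 (limma adjusted p = 1.58e-09).

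CCL7, a monocyte ligand next to CCL2 in the genome, was listed at 0 in 2 untreated TeloHAEC libraries and was at 0.406 TPM in the third. IL-1β brought it to 8.06, 5.51 and 3.63 TPM, all above the untreated libraries. With TNF-α it was at 1.73, 0.369 and 1.26 TPM, and the lowest of these lay under the highest untreated library. The log2 difference was 2.53 ± 0.276 with IL-1β (SE, limma adjusted p = 2.17e-07) and 0.86 ± 0.276 with TNF-α (limma adjusted p = 0.0318). The TNF-α call was lost without untreated library 1.2 (limma adjusted p = 0.110) or 1.3 (0.110), without TNF-α library 1.1 (0.171) or 1.3 (0.106), with no filter (0.0543) and in a fit of the compared groups alone (0.104).

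CCL20, which attracts CCR6-bearing lymphocytes and dendritic cells, was listed at 0 in 2 untreated TeloHAEC libraries and was at 0.338 TPM in the other. It was at 10.1, 8.77 and 8.71 TPM with IL-1β and at 3.34, 2.50 and 1.74 TPM with TNF-α. The 3 groups did not overlap. The log2 rise was 3.20 ± 0.258 (SE, limma adjusted p = 1.89e-09) with IL-1β and 1.65 ± 0.258 (limma adjusted p = 4.66e-05) with TNF-α.

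CXCL10 was at 0.272, 0.234 and 0 TPM in untreated TeloHAEC. It was at 1.44, 0.476 and 1.51 TPM with IL-1β and at 2.55, 2.72 and 4.33 TPM with TNF-α, so the groups were separate. Its log2 rise was 0.84 ± 0.185 (SE, limma adjusted p = 0.00126) and 1.83 ± 0.185 (limma adjusted p = 1.17e-07). CXCL11, the other CXCR3 ligand, was at 0.414, 0.445 and 0.517 TPM in untreated cells. It was at 0.730, 1.27 and 1.94 TPM with IL-1β and at 4.93, 4.42 and 6.12 TPM with TNF-α. Its log2 rise was 0.63 ± 0.182 (SE, limma adjusted p = 0.0107) with IL-1β and 2.07 ± 0.182 (limma adjusted p = 1.29e-08) with TNF-α. The IL-1β rise of CXCL11 failed the threshold without IL-1β library 1.3 (limma adjusted p = 0.0888) and in a fit of the compared groups alone (0.0575).

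CXCL16, the membrane-anchored ligand of CXCR6, was at 20.9, 15.6 and 21.0 TPM in untreated TeloHAEC. It was at 17.9, 16.5 and 15.4 TPM with IL-1β and at 19.7, 12.7 and 18.4 TPM with TNF-α, and all 3 groups overlapped. The log2 difference was -0.18 with IL-1β (95% interval -0.48 to 0.11) and -0.18 with TNF-α (-0.48 to 0.11), so a rise of more than 0.11 lay outside both intervals. CX3CL1 was listed at 0 in 20 of the 24 parental libraries. Its values above 0 were 0.528, 0.262 and 0.425 TPM in the 3 IL-1β libraries of TeloHAEC and 0.181 TPM in 1 TNF-α library, all under the filter and not tested. CXCL12 was listed at 0 in 23 of 24 parental libraries and at 0.0552 TPM in 1 IL-1β library of TeloHAEC.

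**Figure D2:**
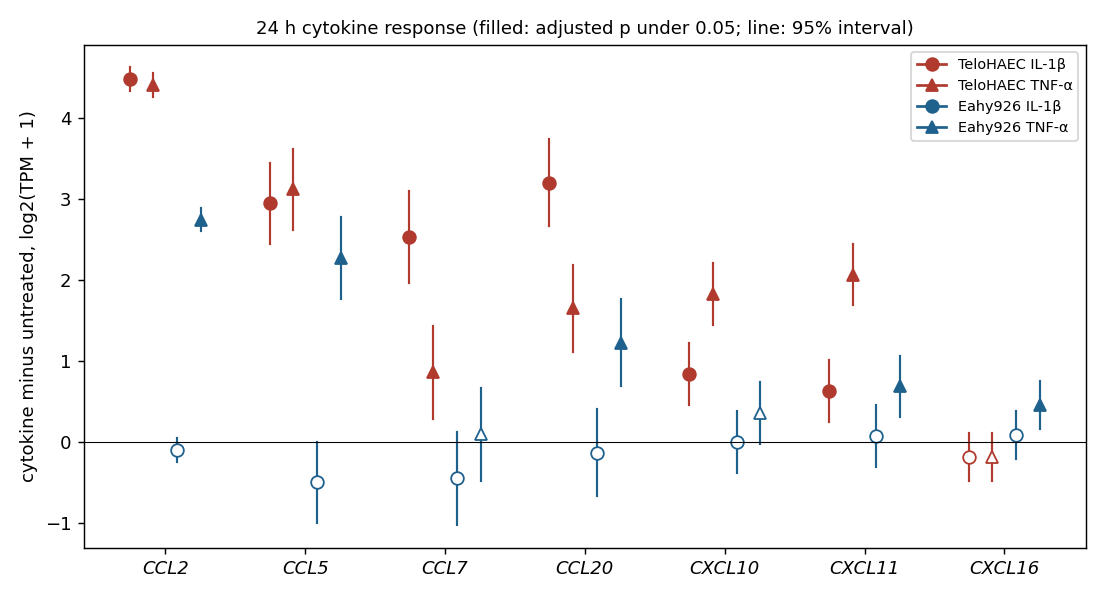
Difference between cytokine-treated and untreated cells on the log2(TPM + 1) scale for the 7 chemokines tested, with 95% intervals from limma; circles are IL-1β, triangles TNF-α, red TeloHAEC, blue Eahy926, and filled symbols passed at adjusted p under 0.05. TeloHAEC symbols for CCL2 stand at 4.48 and 4.41, and the Eahy926 IL-1β circles are all open.

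The 2 cytokines gave different mixtures of these chemokines in TeloHAEC. Compared directly, 4 of the 7 tested differed, 2 in each direction, beside 12.7% of all genes called, 3.52% higher and 9.22% lower with IL-1β. The share of calls that were higher was 27.6%, and 43.2% with median-of-ratios scaling. CCL7 was 5.13-fold higher with IL-1β than with TNF-α (log2 difference 1.67 ± 0.276 SE, limma adjusted p = 0.000212), and CCL20 was 3.63-fold higher (1.55 ± 0.258, limma adjusted p = 0.000231). CXCL10 was lower with IL-1β by 0.99 on the log2 scale (-0.99 ± 0.185, limma adjusted p = 0.000798) and CXCL11 by 1.44 (-1.44 ± 0.182, limma adjusted p = 7.99e-06). None of these 4 had overlapping groups. CCL2 differed by 0.07 (95% interval -0.07 to 0.22), CCL5 by -0.18 (-0.68 to 0.33) and CXCL16 by -0.00274 (-0.30 to 0.29), and these did not pass. With a pseudocount of 0.1 the calls for CCL7 (limma adjusted p = 0.0798), CCL20 (0.146) and CXCL10 (0.0980) were lost, with values of 2.40, 1.86 and -1.51 on that scale, and the CXCL10 call was also lost in a fit of the compared groups alone (0.0761).

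**Figure D3:**
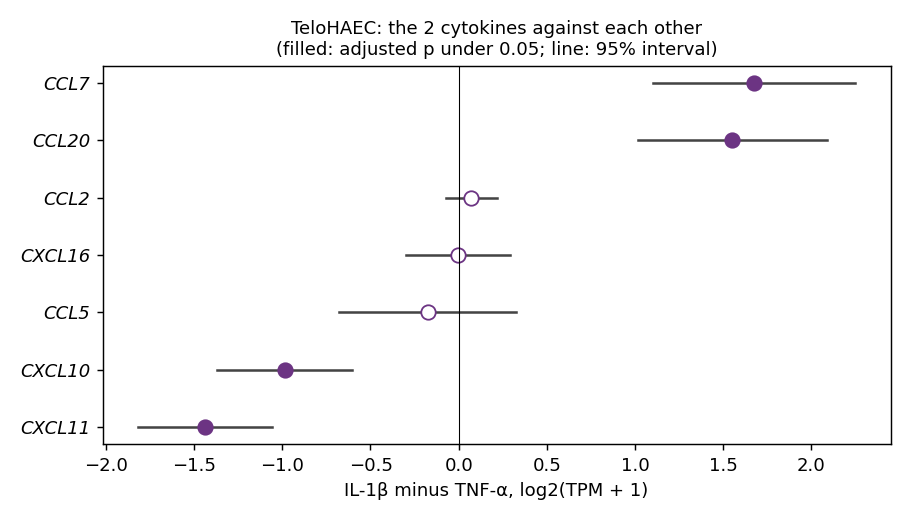
IL-1β minus TNF-α in TeloHAEC on the log2(TPM + 1) scale for the 7 chemokines tested, with 95% intervals from limma; filled points passed at adjusted p under 0.05. CCL7 at 1.67 and CCL20 at 1.55 lie on the IL-1β side, CXCL10 at -0.99 and CXCL11 at -1.44 on the TNF-α side, and CCL2, CCL5 and CXCL16 have intervals that include 0.

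Transcription factor genes downstream of cytokine receptors were read from lists. Of 5 NF-κB subunit genes, 4 rose with each cytokine in TeloHAEC, where 9.92% (IL-1β) and 8.27% (TNF-α) of all genes were called higher: RELB by 2.51 with IL-1β and 3.02 with TNF-α, NFKB2 by 2.14 and 2.43, NFKB1 by 0.87 and 0.91, and RELA by 0.21 and 0.41 on the log2 scale. Of 8 STAT and interferon regulatory factor genes, 2 rose with IL-1β and 4 with TNF-α, beside the same 9.92% and 8.27% of all genes. IRF1, a factor that binds the ISRE, was at 15.1, 13.0 and 14.5 TPM in untreated TeloHAEC, at 25.0, 24.3 and 26.0 with IL-1β and at 52.7, 49.9 and 55.1 with TNF-α. It was the only 1 of those 8 that differed between the cytokines (-1.04 for IL-1β minus TNF-α, limma adjusted p = 3.73e-09). Of all genes 12.7% were called in that comparison, a share close to 1 of 8. The part of IRF1 in the CXCL10 and CXCL11 values was not tested. Of 9 tested genes for shedding, trimming or surface binding of chemokines, 4 rose and 1 fell with IL-1β, and 3 rose with TNF-α, beside 31.1% and 18.2% of all genes called in either direction. SDC4, a heparan sulphate proteoglycan of the cell surface, was at 60.5, 69.1 and 63.1 TPM in untreated TeloHAEC, at 323, 331 and 330 with IL-1β and at 181, 168 and 185 with TNF-α, with log2 rises of 2.34 and 1.46.

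Medium without VEGF left the 7 tested chemokines of TeloHAEC without a call, beside 13.1% of all genes called, 9.1% higher and 4.02% lower (69.3% of the calls higher, and 50.6% with median-of-ratios scaling), and 1 of the 7 had an unadjusted p under 0.05. That 1 was CXCL11, at 0.843, 0.893 and 1.42 TPM without VEGF, above all 3 untreated libraries (log2 difference 0.48 ± 0.182 SE, limma adjusted p = 0.0894). It passed when the 2 untreated libraries numbered 0.1 and 0.2, which had CXCL11 at 0 and 0.130 TPM, were added to the controls (0.66, limma adjusted p = 0.0122). CCL2 was at 103, 93.0 and 109 TPM without VEGF and overlapped untreated cells. The share of all genes with an unadjusted p under 0.05 was not computed for this medium.

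In Eahy926 the untreated level of CCL2 was 74.5, 79.5 and 82.7 TPM. With IL-1β it was at 79.6, 73.0 and 69.2 TPM, within or just under the untreated range. With TNF-α it was at 515, 523 and 570 TPM, above every untreated library. The mean rose 6.79-fold with TNF-α, from 78.9 ± 4.11 to 536 ± 29.6 TPM (SD, n = 3), a log2 rise of 2.75 ± 0.0695 (SE, limma adjusted p = 5.41e-18). With the untreated libraries numbered 0.1 and 0.2, at 16.2 and 19.4 TPM, added to the controls, the CCL2 rise was 3.58 ± 0.35 (limma adjusted p = 3.25e-08), and the uncalled CCL2 difference with IL-1β turned from -0.09 to 0.74 (limma adjusted p = 0.454), as did that with VEGF, from -0.11 to 0.72 (limma adjusted p = 0.483).

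With IL-1β 0 of the 7 chemokines were called in Eahy926 by limma and 0 had an unadjusted p under 0.05, where 0.00738% of all genes were called. CCL5 was listed at 0 in 1 IL-1β library and was at 0.217 and 0.771 TPM in the others, and CCL7 and CXCL10 were listed at 0 in all 3. IL1R1, the receptor that binds IL-1β, was at 23.3, 25.2 and 21.7 TPM in untreated TeloHAEC and at 0.0823, 0.0260 and 0 TPM in untreated Eahy926 (log2 difference 4.56, limma adjusted p = 5.82e-23). In the Eahy926 IL-1β libraries IL1R1 was listed at 0. The part of this receptor in the absence of calls was not tested.

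With TNF-α 5 of the 7 rose in Eahy926, beside 20% of all genes called, 12.5% higher and 7.45% lower. Of all genes called there, 62.7% were higher, and 49.3% when libraries were scaled by the median of ratios. CCL5 was at 1.73, 0.468 and 0.508 TPM in untreated Eahy926 and at 8.83, 6.92 and 7.82 TPM with TNF-α (log2 rise 2.28 ± 0.242 SE, limma adjusted p = 2.35e-07). CCL20 was at 1.54, 0.365 and 0 TPM in untreated cells and at 2.91, 2.61 and 2.15 TPM with TNF-α (1.23 ± 0.258, limma adjusted p = 0.00133). CXCL11 was listed at 0 in the 3 untreated libraries and was at 0.850, 0.172 and 0.941 TPM with TNF-α (0.69 ± 0.182, limma adjusted p = 0.00873). CXCL16 was at 0.0674, 0.128 and 0 TPM in untreated cells and at 0.567, 0.343 and 0.502 TPM with TNF-α (0.46 ± 0.142, limma adjusted p = 0.0236). The last 2 stayed under 1 TPM throughout.

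Several of these low calls rested on single libraries. The CXCL11 call was lost without TNF-α library 1.1 (limma adjusted p = 0.0520) or 1.3 (0.0615). The CXCL16 call was lost without TNF-α library 1.1 (0.0872) or 1.3 (0.0683), without untreated library 1.3 (0.0617), and with all 5 untreated libraries (0.178). In a fit of the compared groups alone CCL20 (0.121) and CXCL11 (0.126) did not pass. CCL7, at 0.334, 0.337 and 0.740 TPM with TNF-α against 0.794, 0 and 0.409 in untreated cells, was not called. CXCL10, at 0.448, 0.452 and 0 TPM with TNF-α and listed at 0 in the untreated libraries, was not called either (limma adjusted p = 0.194), but passed with a pseudocount of 0.1 (1.64 on that scale, limma adjusted p = 0.0484). Of the 8 STAT and interferon regulatory factor genes, 7 rose with TNF-α in Eahy926, where 12.5% of all genes were called higher, among them IRF7 (2.86 on the log2 scale), IRF9 (2.54) and IRF1 (1.29), and 4 of 5 NF-κB subunit genes rose. The summed level of 8 epithelial markers was 4095 to 4158 TPM in untreated Eahy926 and 2530 to 2672 with TNF-α, with 5 of 8 reaching 1 TPM in both groups. The part of this shift in the chemokine values was not tested. VEGF gave 0 calls of 7 in Eahy926 by limma and 0 at an unadjusted p under 0.05, where 0.00738% of all genes were called.

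The lines also differed before treatment in most genes. Of all genes 76.2% were called, 36.3% as higher and 39.9% as lower in untreated TeloHAEC than in untreated Eahy926. Of the 7 tested chemokines 3 were called higher and none lower, a smaller part called than among all genes. CXCL16 was above 15 TPM in each untreated TeloHAEC library and at or under 0.128 TPM in each untreated Eahy926 library (log2 difference 4.23 ± 0.142 SE, limma adjusted p = 2.61e-17). CCL2 was 1.37-fold higher (0.45 ± 0.0695, limma adjusted p = 4.54e-06), and CXCL11, listed at 0 in untreated Eahy926, was higher by 0.54 (limma adjusted p = 0.0102). CCL20 was not called (-0.46), but passed as lower in TeloHAEC without untreated Eahy926 library 1.3 (-0.76, limma adjusted p = 0.0112). The 2 further untreated Eahy926 libraries, numbered 0.1 and 0.2 and kept out of the fit, had CCL2 at 16.2 and 19.4 TPM, and the mean of the 3 fitted controls was 4.43-fold higher than theirs. With all 5 untreated libraries of each line the CCL2 difference was 1.26 (limma adjusted p = 0.000643). The TeloHAEC libraries so numbered had CCL2 at 99.8 and 106 TPM, within the range of the other controls.

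The difference between the lines in their responses was tested as an interaction. The IL-1β response was larger in TeloHAEC for 5 of the 7, beside 22.5% of all genes called and 5.96% called larger. These were CCL2 (4.58 ± 0.0983 SE, limma adjusted p = 1.46e-18), CCL5 (3.44), CCL20 (3.33), CCL7 (2.98) and CXCL10 (0.84, limma adjusted p = 0.0236). With all 5 untreated libraries of each line the CCL2 difference was 3.77 (limma adjusted p = 5.28e-06). The CXCL10 difference did not pass without untreated TeloHAEC library 1.3 (0.0661) or IL-1β library 1.1 (0.0652) or 1.3 (0.0728). CXCL11 was not called (0.55, limma adjusted p = 0.130), but passed without TeloHAEC IL-1β library 1.1 (0.0364) and with all 5 untreated libraries (0.0398). Scaling by the median of ratios moved the median of all genes in this comparison from -0.12 to -0.01, and the share of calls that were larger in TeloHAEC from 26.5% to 48.1%. For TNF-α, 4 of the 7 differed between the lines, beside 10.3% of all genes called, 3.26% larger and 7.05% smaller in TeloHAEC. Of these calls 31.6% were larger, and 44.6% with median-of-ratios scaling. CCL2 (1.66), CXCL10 (1.47) and CXCL11 (1.38) responded more in TeloHAEC, and CXCL16 less (-0.65, limma adjusted p = 0.0437). With all 5 untreated libraries of each line the CCL2 difference was 0.85 and did not pass (limma adjusted p = 0.393), and CXCL16 did not pass either (0.205). The CXCL16 difference also failed with no filter (0.0728), with either other scaling (0.0557 and 0.0503), in a fit of the compared groups alone (0.140), and without any 1 of TeloHAEC controls 1.1 and 1.3, TeloHAEC TNF-α library 1.2, Eahy926 controls 1.1 and 1.3 and Eahy926 TNF-α libraries 1.1 and 1.3 (0.0562 to 0.140). With a pseudocount of 0.1, CXCL10 was at 2.15 (limma adjusted p = 0.113) and CXCL11 at 0.54 (0.694), and neither passed. CCL5 (0.85, 95% interval 0.14 to 1.56, limma adjusted p = 0.135) and CCL20 (0.43, -0.33 to 1.18) were not called, which does not show that the lines responded alike.

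The order of the CCL2 levels over the 8 parental groups, by median, was TeloHAEC with IL-1β at 2473 TPM, TeloHAEC with TNF-α at 2314, Eahy926 with TNF-α at 523, untreated TeloHAEC at 107, TeloHAEC without VEGF at 103, untreated Eahy926 at 79.5, Eahy926 with IL-1β at 73.0 and Eahy926 with VEGF at 71.2. Untreated TeloHAEC overlapped TeloHAEC without VEGF, and the last 3 groups overlapped each other in turn. For CXCL16 the 4 TeloHAEC groups came first, with medians of 16.5 to 20.9 TPM and overlapping neighbours, and the Eahy926 groups followed at medians of 0.0674 to 0.502 TPM.

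Over the 12 TeloHAEC libraries of the 4 groups, the genes most like each chemokine were found by Pearson r on log2(TPM + 1), as a description, since the libraries of a treatment share it. CCL2 was most like ICAM1, a leukocyte adhesion molecule (r = 0.998), CTSS (0.997) and NFKBIA, the NF-κB inhibitor (0.997). CCL5 was most like CCL2 (0.989), JAG1 (0.989) and NFKBIA (0.988), and CCL20 like CXCL3, a neutrophil chemokine (0.993), IL1B (0.992) and HDGF (0.991). CCL7 was most like RAC2 (0.9504), ST5 (0.9502) and VMP1 (0.946), CXCL10 like BCL3 (0.974), CLEC1A (0.972) and ANKRD26P1 (0.965), and CXCL11 like RANGAP1 (0.974), MAST4 (0.967) and CD83 (0.962). CXCL16 had the weakest partners, SCAF4 (0.874), FAM84A (0.857) and RALGAPA2 (0.853). Among the chemokines themselves r was 0.900 for CCL7 with CCL20 and 0.860 for CXCL10 with CXCL11. It was as high for CCL2 with CCL20 (0.911) and with CXCL10 (0.860), and for CCL5 with CCL20 (0.884) and with CXCL10 (0.854). For CCL7 it was 0.402 with CXCL10 and 0.131 with CXCL11. Between CXCL16 and the other 6 chemokines r ranged from -0.327 to -0.103.

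In the CRISPRi cells only CCL2 and CXCL16 were above 1 TPM in all 24 libraries. The 2 blocks of libraries hold values for different symbol sets, 27311 in the parental and 35587 in the CRISPRi columns, so levels are not compared between them. CCL2 and CXCL16 passed the filter of the CRISPRi fit (at least 1 TPM in at least 2 libraries) together with CCL5 and CXCL11, and CCL7, CCL20, CXCL10, CX3CL1 and CXCL12 did not. CXCL12 was listed at 0 in all 24, CX3CL1 reached at most 0.0997 TPM, CXCL10 0.279, CCL20 0.593 and CCL7 1.055 TPM. The target was reduced below every non-targeting library in 18 of the 20 targeted libraries. The exceptions were MAP2K5 guide A11 (105% of the non-targeting mean) and NFAT5 guide D7 (97.1%).

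The guides of the CCM2 and PDCD10 libraries are shown because CCL2 and CXCL16 were lowest there. CCM2 and PDCD10 encode partners in the cerebral cavernous malformation complex, which holds back the kinase MAP3K3 and, through it, MAP2K5, MEF2 factors and the transcription factor KLF2 in endothelial cells. ITGB1BP1 encodes a protein that binds another partner of this complex. Sequences are as the labels give them, 5′ to 3′, with capitals for bases that matched a GENCODE 29 transcript or a RefSeq promoter of any targeted gene. C2 matched none of these sequences.
CCM2 guide C2: ggcaagaaggtgagcgtgcg
CCM2 guide F6: gAGCCGCTACATGCTCGACCC
PDCD10 guide D11: gACCGAGCAGAAGAGGTCTA
PDCD10 guide G1: gCCGCTTTACGCCACTCGCGT
ITGB1BP1 guide G8: GCCGCGGTATATAAGCCGGC
KLF2 guide G10: GAAGTCCGCAACCCGGGGAT
The last pair is shown because the labels and the matches cross. The sequence labelled ITGB1BP1 G8 matched the KLF2 promoter, and the sequence labelled KLF2 G10 matched ITGB1BP1 transcripts. The target levels followed the library names: ITGB1BP1 was at 14.2% of the non-targeting mean in G8, and KLF2 at 5.69% in G10. Both libraries are described here by their names.

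CCL2 was at 72.9 to 105 TPM in the 4 non-targeting libraries (mean 87.3 ± 13.7 SD). It was at 39.9 and 25.0 TPM in the CCM2 libraries, below all 4. The log2 difference was -1.42 ± 0.44 (SE, limma adjusted p = 0.0383), beside 14% of 14143 tested genes called, 5.66% higher and 8.37% lower, and 1 of the 4 tested chemokines was called. The call was lost without any 1 of non-targeting libraries 1 to 3 (limma adjusted p = 0.0720, 0.0811 and 0.0639), without guide C2 (0.0557) or F6 (0.370), with no filter (0.0929), with scaling by the median of ratios (0.0550), with robust empirical Bayes (0.0603) and without the libraries whose target was not reduced (0.0505). CXCL16 was at 38.9 and 27.6 TPM in the CCM2 libraries and at 50.9 to 64.8 TPM in the non-targeting ones, with no overlap (-0.75 ± 0.282, limma adjusted p = 0.0888). It passed in a fit of the compared groups alone (0.0241). Of all genes called in CCM2 libraries 40.3% were higher, and 61.6% when libraries were scaled by the median of ratios.

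The 2 PDCD10 guides differed. With D11, CCL2 was at 17.4 TPM and CXCL16 at 17.3 TPM, the lowest value of each in the CRISPRi block, and PDCD10 itself at 12.9% of the non-targeting mean. With G1, CCL2 was at 69.0 TPM, just under the non-targeting range, CXCL16 at 55.2 TPM, inside it, and PDCD10 at 40.9%. Neither chemokine was called (CCL2 -1.28 ± 0.44 SE, limma adjusted p = 0.0841; CXCL16 -0.82 ± 0.282, limma adjusted p = 0.0847), where 7.04% of all genes were called, 35.4% of them higher (61.9% with median-of-ratios scaling). Both passed without guide G1 (CCL2 -2.25, limma adjusted p = 0.00155; CXCL16 -1.63, limma adjusted p = 2.03e-05), in a fit that assumes the lone library to vary like the other groups. The number of calls for the 4 tested was thus 0 by limma with both guides, with 2 at an unadjusted p under 0.05. The share of all genes at that unadjusted threshold was not computed, so this count has nothing to be set against.

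**Figure D4:**
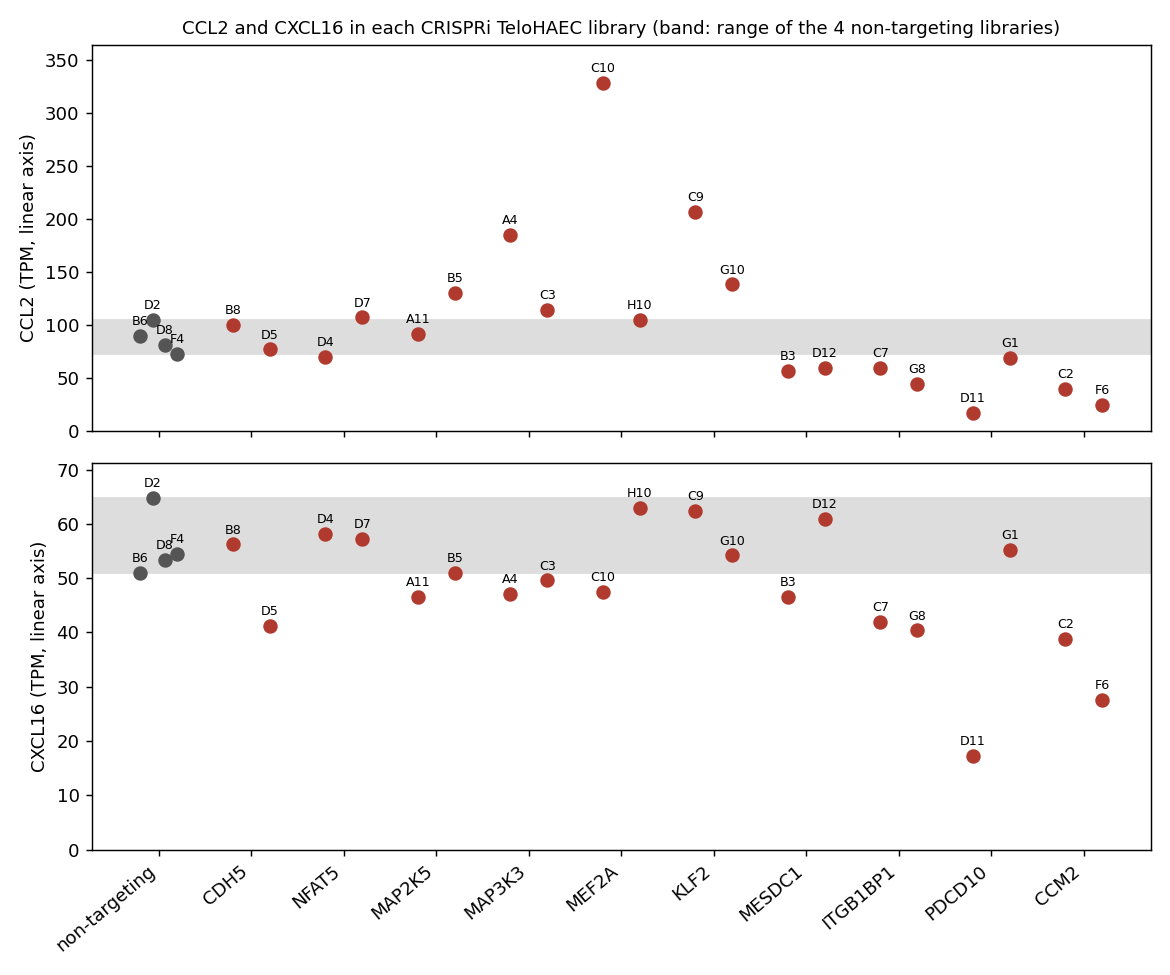
CCL2 (upper panel) and CXCL16 (lower panel) in TPM on linear axes in each of the 24 CRISPRi libraries, 1 point per library with the name of its guide, and a grey band for the range of the 4 non-targeting libraries. Both CCM2 points lie under the band in both panels, the PDCD10 points lie far apart, and both points of KLF2 and MAP3K3 lie above the CCL2 band, as does MEF2A guide C10.

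The ITGB1BP1 libraries had CCL2 at 59.8 and 44.8 TPM and CXCL16 at 42.0 and 40.4 TPM, all under the non-targeting range but not called (limma adjusted p = 0.342 and 0.395; 7.7% of all genes called, 4.36% as lower, 43.3% of the calls higher, or 63.0% with median-of-ratios scaling). In a fit of the compared groups alone both passed (0.0370 and 0.0401). The MESDC1 libraries, whose target is listed as TLNRD1, had CCL2 at 56.6 and 59.9 TPM, under the range, and CXCL16 at 46.5 and 60.9 TPM, and neither was called (0.552% of all genes called).

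CCL2 was above the non-targeting range in both libraries of KLF2 (207 and 138 TPM), MAP3K3 (185 and 114 TPM) and MEF2A (328 and 105 TPM, the second at the upper edge of the range), and in 1 each of MAP2K5 (131 TPM, guide B5) and NFAT5 (107 TPM, guide D7, whose target was not reduced). None was called: the log2 difference was 0.96 ± 0.44 (SE, 95% interval 0.03 to 1.89) for KLF2, 0.74 ± 0.44 (-0.18 to 1.67) for MAP3K3 and 1.09 ± 0.44 (0.17 to 2.02) for MEF2A. In these comparisons 0.0141%, 0.0566% (0.0495% as lower) and 0.00707% of all genes were called, so few genes of any kind passed. At an unadjusted p under 0.05 CCL2 passed for KLF2 and MEF2A, and CXCL11 for MAP3K3 and MEF2A. How many of all genes passed at that unadjusted threshold was not computed. CXCL11 reached 1 TPM only in 1 library each of MAP3K3 and MEF2A, and CCL5 only in 1 each of ITGB1BP1 and KLF2, so each was tested through the groups in which it was high. CXCL11 was at 0.0868 to 0.527 TPM in the non-targeting libraries and reached its highest CRISPRi level, 1.86 TPM, with MEF2A guide C10. MAP2K5, NFAT5 and CDH5 gave 0 calls by limma and 0 at an unadjusted p under 0.05, where 0%, 0.00707% and 0.0141% of all genes were called.

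Over the 20 targeted libraries, CCL2 was above the non-targeting range in 8, below it in 9 and within it in 3. CXCL16 was above its range in 0, below it in 11 and within it in 9. A single library can easily leave a range drawn from only 4 libraries. The share of all genes that did so was not computed, so these counts are a description. KLF2, the transcription factor at the end of this pathway, was at 91.3 to 123 TPM in non-targeting libraries. It was at 690 and 723 TPM in the CCM2 libraries, 754 (D11) and 221 (G1) TPM in PDCD10, 519 and 486 TPM in ITGB1BP1 and 308 and 220 TPM in MESDC1, and in all 8 CCL2 was below its own non-targeting range. It was at 2.99 and 6.12 TPM in the KLF2 libraries and at 5.71 and 14.5 TPM in MAP3K3, and in these 4 CCL2 was above its range. MEF2A guide C10 had the highest CCL2 of the block (328 TPM) with KLF2 at 87.1 TPM, just under the KLF2 range. With MEF2A guide H10, CCL2 was at 105 TPM and KLF2 at 69.0 TPM. With MAP2K5 guide B5, KLF2 was at 16.2 TPM and CCL2 above its range, and with A11 both were within their ranges. The CDH5 libraries, with KLF2 at 128 and 151 TPM, had CCL2 within its range. The NFAT5 libraries had KLF2 within its range (100.4 and 102 TPM), while CCL2 was below its own range with D4 and above it with D7. How many other genes lay on the opposite side of their range from KLF2 in this way was not counted. The part of KLF2 in the CCL2 values was not tested.

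Marker sums moved with some of these groups. The 8 epithelial markers summed to 1209 to 1393 TPM in non-targeting libraries, 5402 to 6506 TPM in CCM2, 2631 to 6818 TPM in PDCD10, 2936 to 3266 TPM in ITGB1BP1 and 2492 to 2651 TPM in MESDC1 libraries, with 4 of 8 reaching 1 TPM in each of these groups. The same 8 markers summed to 953 to 993 TPM in KLF2, 875 to 970 TPM in MAP3K3 and 1041 to 1118 TPM in MEF2A libraries, under the non-targeting range. KRT18, at 532 to 5924 TPM, carried most of the sum, while EPCAM and CDH1 stayed at or below 0.590 and 0.736 TPM and KRT14 was listed at 0. The 12 leukocyte markers summed to 56.8 to 70.6 TPM in non-targeting libraries, 133 to 175 TPM in CCM2, 96.4 to 223 TPM in PDCD10, 60.2 to 69.8 TPM in ITGB1BP1 and 96.3 to 160 TPM in MESDC1 libraries. CD68 was higher in CCM2 (107 against 52.1 TPM, limma adjusted p = 0.0259) and PDCD10 (148 ± 97.1 TPM, SD of 2 libraries, limma adjusted p = 0.0139). CD14, a monocyte marker, was called higher in CCM2 (44.4 against 12.6 TPM, limma adjusted p = 0.00810). Its mean was 47.2 TPM in MESDC1 (limma adjusted p = 0.0582) and 22.1 TPM in ITGB1BP1 (limma adjusted p = 0.269). Both were uncalled but did not overlap the non-targeting libraries. In PDCD10 the CD14 mean was 10.9 TPM, with overlap. Lower CD14 means, uncalled and without overlap, were those of KLF2 (4.16 TPM), MAP3K3 (4.48), MAP2K5 (4.83), CDH5 (7.38), MEF2A (8.91) and NFAT5 (9.39). Of the 12, 2 reached 1 TPM in non-targeting, PDCD10 and MESDC1 libraries, 3 in ITGB1BP1 and 4 in CCM2 libraries, with PTPRC at or below 0.563 TPM and MS4A1 and FCGR3A listed at 0 in all CRISPRi libraries. The part of these shifts in the CCL2 and CXCL16 values was not tested.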

How the data were processed

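Polyadenylated RNA from 52 libraries of 2 endothelial lines was used, prepared with an NEBNext Ultra II kit per the labels. The authors deposited TPM values per gene symbol, and the submitters' processing notes name Bowtie2, kallisto and hg19, without their roles; versions are not given in the sources used here. Groups were taken from the labels. Parental libraries (24 in the fit, 3 per group; the 4 untreated libraries numbered 0.1 and 0.2 were kept out of it) and CRISPRi libraries (24) were fitted apart. Each fit used limma 3.58.1 in R 4.3.3, with trended empirical Bayes, on log2(TPM + 1), for genes of at least 1 TPM in at least 3 parental libraries (13542 genes) or 2 CRISPRi libraries (14143 genes). Tests were two-sided, with Benjamini-Hochberg adjustment over all genes of the fit and a threshold of 0.05. Shares of all genes were computed for adjusted p only. A rise in one abundant gene lowers the TPM of others, and values near 0 rest on few reads. The code was tested on simulated data.

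Alternatives were other pseudocounts, filters, scalings and sample sets, a replicate block and each library left out. No 2 libraries of a group were copies: at least 15965 symbols differed between any 2. The chemokines and the gene lists were chosen with earlier results of these data known. Of the other lists, at most the 4 genes with the lowest adjusted p among those called were named per comparison. RefSeq (GRCh38.p14) gave promoters and gene order, and coordinates in the files' build were not used. Python 3.11.15 was used for sequences and figures.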

Additional observations from a re-analysis of the deposited data

Results flagged for a closer look

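The response to IL-1β differed between the 2 lines by an interaction term for 5 of the 7 chemokines tested, given as TeloHAEC minus Eahy926 on the log2(TPM + 1) scale with limma. The differences were 4.57504 for CCL2, 3.44314 for CCL5, 3.33278 for CCL20, 2.97985 for CCL7 and 0.841424 for CXCL10. Of all genes, 22.5% were called in this comparison and 5.96% as larger in TeloHAEC. The CXCL10 call was lost without untreated TeloHAEC library 1.3 or IL-1β library 1.1 or 1.3 (limma adjusted p = 0.0652 to 0.0728). In Eahy926 none of these 5 was called with IL-1β.

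The response to TNF-α differed by the same kind of term for 4 of the 7. The differences were 1.66113 for CCL2, 1.47164 for CXCL10 and 1.37761 for CXCL11, and -0.645477 for CXCL16. Of all genes, 10.3% were called. Each of the 4 lost its call in some setting: CCL2 (limma adjusted p = 0.393) and CXCL16 (0.205) with all 5 untreated libraries, and CXCL10 (0.113) and CXCL11 (0.694) with a pseudocount of 0.1.

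CXCL16 in the untreated Eahy926 libraries numbered 0.1 and 0.2, which no comparison used in its main form, was at 0.478 and 0.350807 TPM. The untreated Eahy926 libraries in the fit were at or under 0.128 TPM, so both were higher. All of these values lie under 1 TPM. Only the non-targeting CRISPRi group held enough libraries for a test of single outlying libraries. It was tested for the 8 chemokines whose values varied there, and 0 outliers were found. All parental groups and all targeted CRISPRi groups were too small for that test.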

How the results depend on the processing

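No value that was called in the main setting or under an alternative changed sign. Of the values for single chemokines, 1579 kept their side of the threshold (42 of these, all uncalled, changed sign), 47 lost the call and 11 gained it. Of the counts of called chemokines, 277 stayed within 1.5 times and 24 moved. Requiring at least 5 TPM left 3 calls with each cytokine in TeloHAEC (from 6 each), 3 for the IL-1β response between lines (from 5), 2 for the TNF-α response (from 4) and 1 for IL-1β against TNF-α (from 4), since fewer of the chemokines were tested. A pseudocount of 0.1 left 1 call for IL-1β against TNF-α and 2 for the TNF-α response. Fits of the compared groups alone gave 3 calls for TNF-α in Eahy926 (from 5), 2 for CCM2 (from 1) and 2 for ITGB1BP1 (from 0). With all 5 untreated libraries of a line, medium without VEGF gave 1 call (from 0) and the TNF-α response 2. For CCM2 the count was 0 with no filter, with median-of-ratios scaling, with robust empirical Bayes and without libraries whose target was unreduced. Leaving out 1 library gave 3 to 5 calls for TNF-α in Eahy926, 0 to 1 for CCM2 and 0 to 2 for PDCD10. Except where stated, the cause was not tested.

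Replicate numbers did not pair the parental libraries: 0 of 18 same-numbered pairs in either line had residual correlations above 0.1. With the number as a replicate block, 4 chemokines differed between the untreated lines (from 3; CCL20, limma adjusted p = 0.0483), and no other count changed. The CRISPRi guides carry no shared numbers. Depth is unknown, so values under about 1 TPM cannot be given a counting error.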

Other observations

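Other genes of chemokine biology moved in the CRISPRi cells. ACKR1, a decoy receptor that holds chemokines on venous endothelium, was at 10.0 and 16.6 TPM in the CCM2 libraries and at 0.243, 0, 0.136 and 0 TPM in the non-targeting ones (log2 rise 3.68, limma adjusted p = 2.16e-07). ACKR3, a scavenger of CXCL12 and CXCL11, was at 8.98 and 21.7 TPM against 0.195, 0.988, 0.219 and 0.144 TPM (3.48, limma adjusted p = 1.02e-06). CCL14, a ligand of monocyte receptors, was at 6.88 and 2.75 TPM in the CCM2 libraries and at 21.8, 26.9, 22.7 and 31.4 TPM in the non-targeting ones, a log2 difference of -2.28. CCL14 fell in ITGB1BP1 (-1.45), MESDC1 (-1.94) and PDCD10 (-1.59) libraries as well. ACKR1 was called higher in the same groups, by 1.18, 1.25 and 1.09, at means of 1.61, 1.61 and 1.32 TPM. ACKR3 was not called in them. These comparisons share the non-targeting libraries. In the 24 parental libraries of the fit CCL14 was listed at 0. The parental and CRISPRi columns hold values for different symbol sets, so this is not read as a difference between the cells.

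In parental TeloHAEC, ACKR3 was at 0.315, 0.678 and 0.656 TPM untreated, at 1.95, 3.17 and 3.29 TPM with IL-1β and at 1.61, 1.58 and 1.32 TPM with TNF-α, and both differences were called. The 2 untreated TeloHAEC libraries numbered 0.1 and 0.2, outside the fit, had ACKR3 at 9.58 and 10.999 TPM, above every cytokine-treated library.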
